A study of Bos taurus with 6 samples.

Results

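The genes of glycolysis, of its regulators and of lactate and pyruvate transport were examined in longissimus thoracis muscle (LT) of Korean cattle. The list held 32 genes, chosen by name as the enzymes from hexokinase to lactate dehydrogenase, the enzymes that set fructose 2,6-bisphosphate, a few side enzymes, the transcription factor HIF1A and the carriers of lactate and pyruvate. All 32 were found among the 23015 rows of the count table. Of these, 31 passed the filter on low counts and were tested along with 15039 rows in all. ALDOC, the brain-type aldolase, was the 1 gene that did not pass.

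The 6 animals were Hanwoo steers, a beef breed native to Korea, and all were raised in a conventional way on commercial feed. The marbling particles in a cross-section of the muscle were measured by image analysis, and 3 steers had a high number of fine marbling particles (high NFMP; steers 3-8, 10-8 and 10-9, aged 32.5, 33.8 and 34.5 months) and 3 a low number (low NFMP; steers 3-1, 3-3 and 10-16, aged 37.8, 33.7 and 35.4 months). Each steer gave 1 library of 3′ mRNA sequencing, so n = 3 steers per group and 1 gene has 1 read count per steer. The groups were not treated, and they differ in what was measured on the carcass and partly in age. The paper also reports a higher marbling score and a larger rib eye area for the high group. Marbling fineness therefore cannot be told apart from these traits.

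Glycolysis breaks glucose down to pyruvate in the cytosol, and skeletal muscle holds its enzymes in large amounts to make ATP during short, strong contractions. Many steps are catalysed by several paralogs, of which 1 is typical of muscle, such as the muscle phosphofructokinase PFKM, the muscle phosphoglycerate mutase PGAM2 or the muscle enolase ENO3. Pyruvate either enters the mitochondrion through the MPC1 and MPC2 carrier or is reduced to lactate by lactate dehydrogenase, and lactate crosses the cell membrane through some of the transporters of the SLC16A family. After slaughter, glycolysis also goes on in muscle without oxygen and lowers its pH.

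The libraries held between 16283873 and 17192750 counted reads. The values below are normalized counts, which are reads scaled to the mean effective library size, and fold changes (FC) and p-values come from edgeR's quasi-likelihood test, adjusted by the Benjamini-Hochberg method over the 15039 rows. The tissue label was checked with 6 skeletal muscle fibre markers, whose sum lay between 509430 and 883500 normalized counts, and ACTA1, the skeletal muscle actin, alone had 249720 or more. Steer 3-8 of the high group stood apart, as 6 adipocyte markers summed to 8477 normalized counts in it and to between 2519 and 3722 in the other 5 steers. Of the 6 adipocyte markers, ADIPOQ and CIDEC were higher in the high group (unadjusted p below 0.05) and none was at 0 in a library. The 5 red cell markers summed to at most 67.9 normalized counts in a steer, with HBB, a haemoglobin chain, between 0 and 18.2, SLC4A1, the red cell anion exchanger, between 0 and 1.85, and ALAS2, the red cell enzyme of haem synthesis, between 16.2 and 37.9. In bulk muscle, fewer cells of a type and less RNA per cell cannot be told apart.

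A single paralog took most of the reads at each of the 7 steps of glycolysis, glycogen use and lactate formation that have paralogs on the list (hexokinase, phosphoglucomutase, phosphofructokinase, aldolase, phosphoglycerate mutase, enolase and lactate dehydrogenase). The 32 genes together held 1.97%, 2.64% and 2.64% of the counts of the high-NFMP steers 3-8, 10-8 and 10-9, and 2.095%, 2.17% and 2.16% of those of the low-NFMP steers 3-1, 3-3 and 10-16. Steer 3-8 thus had the smallest share and the other high-NFMP steers had the largest. ALDOA, the muscle aldolase, and GAPDH, which oxidizes glyceraldehyde 3-phosphate, made up between 48.4% and 56.6% of these reads. Read counts ranged from 4.04 normalized counts of ALDOC to 143145 of ALDOA in single steers, as the plot of all genes by steer shows. These are read numbers, not amounts of transcript, since no gene length was used and the reads of a poly(A)-primed library need not scale with length.

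**Figure D1:**
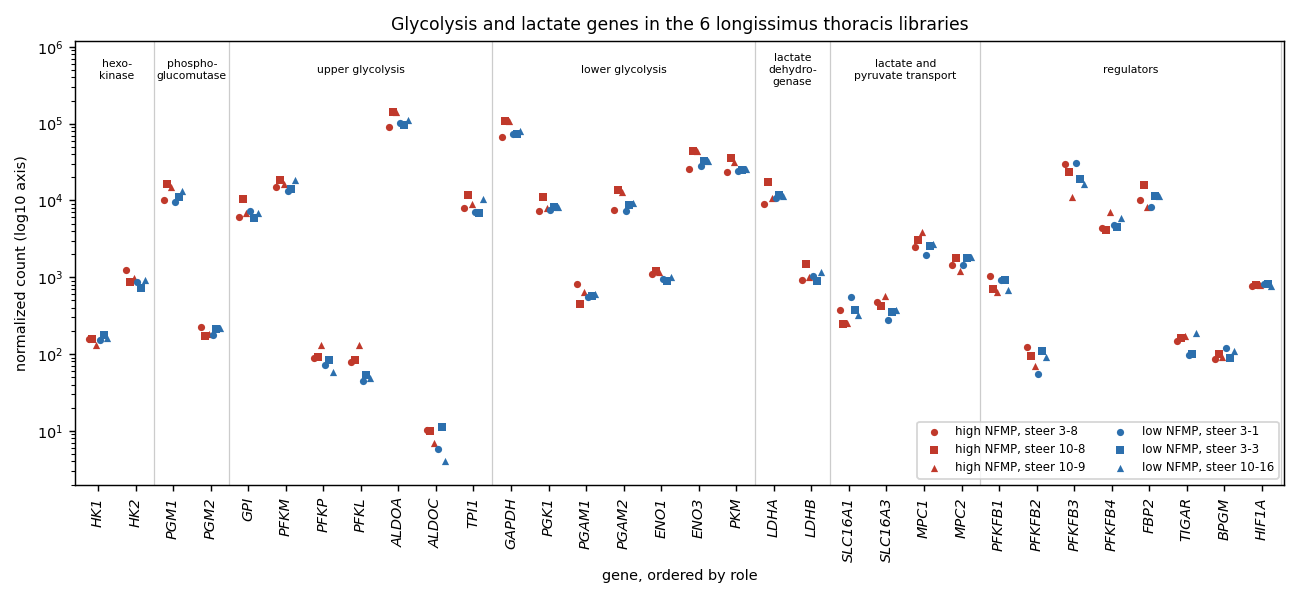
Normalized counts of the 32 genes on a log10 axis, ordered by role, with 1 point per steer (red for high NFMP, blue for low NFMP). ALDOA and GAPDH lie at the top and ALDOC at the bottom, and the points of the groups are interleaved for most genes, with PFKP, PFKL, ENO1 and SLC16A3 as the 4 genes whose groups do not overlap.

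The share of each paralog in the reads of its family was taken within each library, so that it does not depend on the scaling of libraries. A family here means the paralogs among the 32 genes. ALDOA held at least 99.98837% of the aldolase reads in every steer, and ALDOC had between 4 and 12 raw reads. PFKM held 99.0% ± 0.331 of the phosphofructokinase reads (SD, n = 6), next to 0.55% ± 0.156 for PFKP, the platelet type, and 0.455% ± 0.187 for PFKL, the liver type. PGM1, which interconverts glucose 1-phosphate and glucose 6-phosphate, held 98.4% ± 0.446 of the reads of PGM1 and PGM2. Their relatives PGM5, PGM2L1 and PGM3 are outside the 32 genes and not in this share, and they had means of 734, 522 and 113 normalized counts. The same held for the lower steps, where ENO3 had 97.0% ± 0.547 of the enolase reads and PGAM2 had 93.8% ± 2.18 of the phosphoglycerate mutase reads. LDHA, the subunit typical of fast muscle, had 91.5% ± 0.856 of the lactate dehydrogenase reads, and LDHB, typical of heart, had 8.496% ± 0.856. Hexokinase was less one-sided, with 85.4% ± 3.04 for HK2, the insulin-responsive muscle form, and 14.6% ± 3.04 for HK1. Paralogs typical of other organs, named here after their values were seen, were near 0, with at most 2.22 normalized counts of the neuronal enolase ENO2, 4.45 of the liver pyruvate kinase PKLR and 0.925 of the testis kinase PGK2 in a steer.

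Families of regulators and carriers were split more evenly and varied more between steers. Of the bifunctional enzymes that make and remove fructose 2,6-bisphosphate, PFKFB3 held 76.4% ± 10.1 of the reads and PFKFB4 20.2% ± 9.79, while PFKFB1, the form known from liver and muscle, held 3.00% ± 0.516 and PFKFB2, known from heart, 0.342% ± 0.105 (SD, n = 6). The PFKFB3 share went from 58.6% in steer 10-9 to 84.5% in steer 3-1, and the PFKFB4 share was highest, at 37.6%, in that same steer 10-9. MPC1 had 63.1% ± 6.90 of the reads of the pyruvate carrier. The lactate transporters SLC16A3 and SLC16A1 had 54.0% ± 12.4 and 46.0% ± 12.4 of their joint reads. More reads than from both together came in every steer from SLC16A7 (MCT2), a high-affinity pyruvate and lactate transporter outside the 32 genes, which had between 1318 and 2728 normalized counts and was named after its values were seen.

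**Figure D2:**
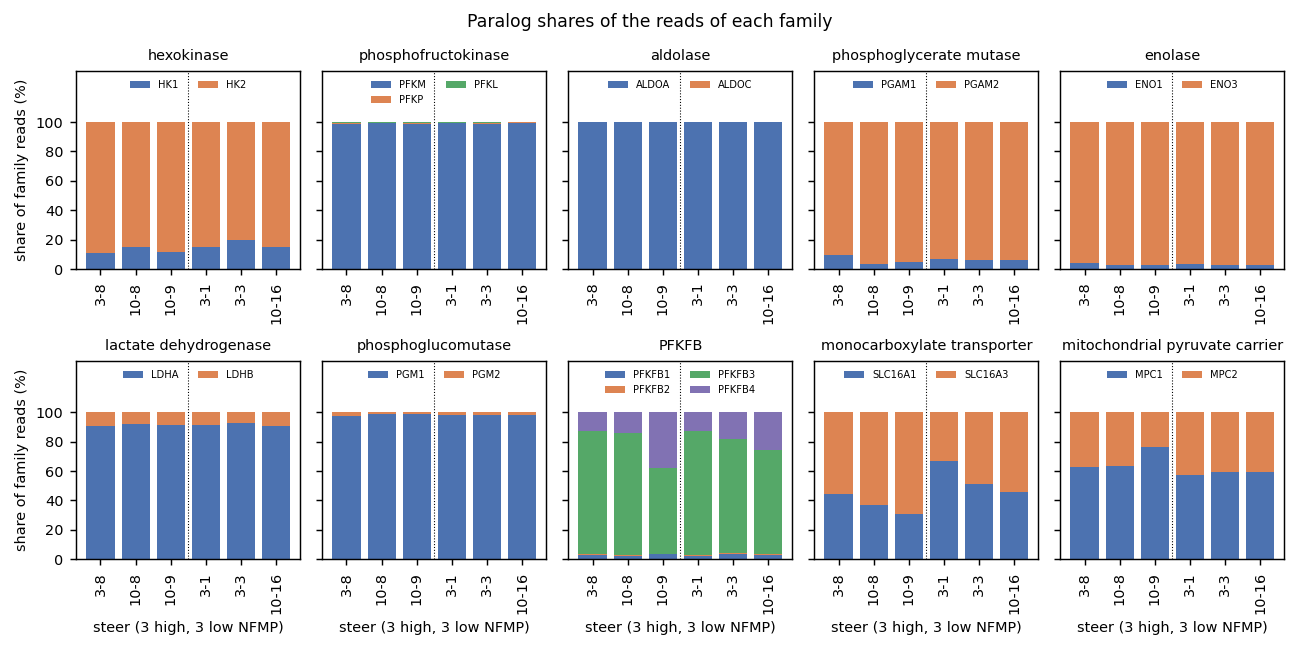
Share of each paralog in the reads of its family (%) in each of the 6 libraries, with the 3 high-NFMP steers left of the dotted line and the 3 low-NFMP steers right of it. A single paralog fills most of each bar in the enzyme families, with 98.4% or more for PFKM, whereas PFKFB4, SLC16A3 and MPC1 change visibly between steers.

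The comparison of high with low NFMP asked whether these genes differ between the groups, which also differ in marbling score. At an adjusted p below 0.05 none of the 31 tested genes was called by edgeR, against 0.685% of all tested rows, and none by DESeq2. The smallest adjusted p was 0.21 by edgeR and 0.109 by DESeq2. At an unadjusted p below 0.05, 2 of the 31 genes were called by edgeR (6.45%, against 11.5% of all rows) and 2 by DESeq2, and both were higher in the high group. They were PFKL and SLC16A3, and no gene was lower at that threshold. With a fold change above 2 as well, as in the methods of the study, PFKL was the 1 gene left, which is 3.23% of the genes against 3.9% of all rows. The groups did not overlap for 4 of the 31 genes (12.9%, against 17.1% of all rows), and each of these 4 was higher in the high group. None of these shares exceeded the share over all rows.

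Direction was also counted. A log2 fold change above 0 was found for 23 of the 31 genes (74.2%), against 51.9% of all rows, and the median was 0.16 on the log2 scale, against 0.02. The genes share their 6 libraries and are not independent, so this count was given no test. The range ran from −0.51 for SLC16A1 to 1.02 for PFKL.

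**Figure D3:**
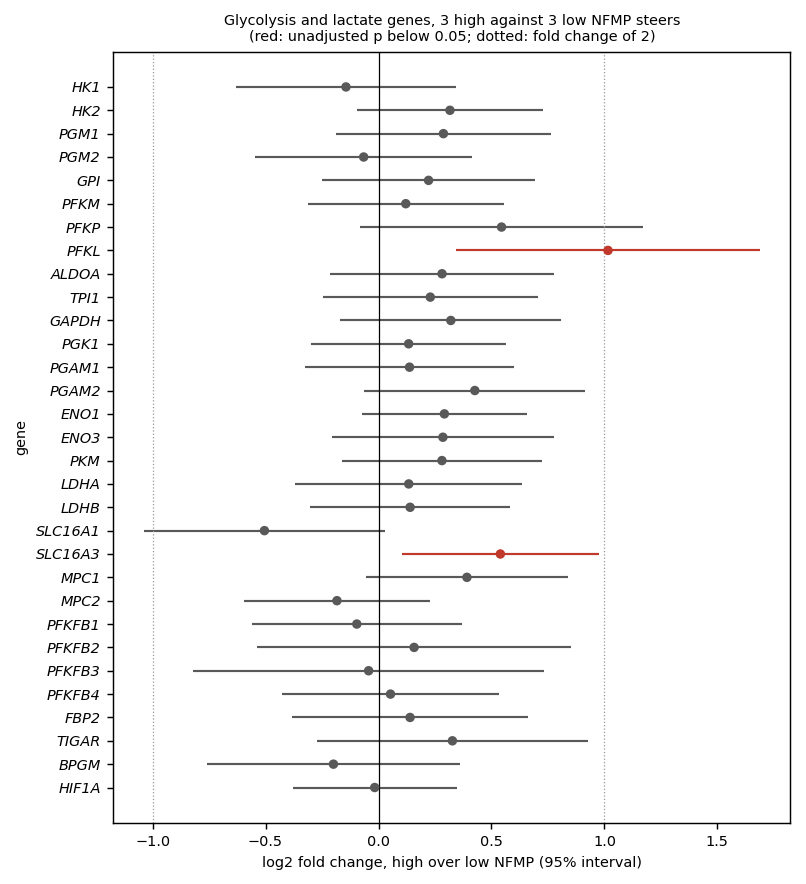
Log2 fold change of high over low NFMP for the 31 tested genes with its 95% interval from edgeR, where red marks an unadjusted p below 0.05 and dotted lines a fold change of 2. The intervals of 29 genes include 0, and those of PFKL (0.34 to 1.69) and SLC16A3 (0.10 to 0.97) lie above it.

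Glucose is phosphorylated by hexokinase. HK2 had 1248, 877 and 986 normalized counts in steers 3-8, 10-8 and 10-9 (high NFMP, the order kept for all genes) and 871, 718 and 911 in steers 3-1, 3-3 and 10-16 (low NFMP; log2 FC 0.32, SE 0.19, adjusted p = 0.564). Steer 3-8 was the highest, and steer 10-8 lay among the low-NFMP steers. HK1, the form of most tissues, stayed between 131 and 176 in all steers with a log2 fold change of −0.14. In the RefSeq annotation HK1 overlaps TACR2, a tachykinin receptor gene, whose mean of 112 normalized counts is 71.9% of that of HK1, and reads of the pair may be shared.

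Phosphoglucomutase links glycogen to glycolysis. PGM1 had 10051, 16396 and 15138 normalized counts in the high group and 9648, 10970 and 13458 in the low group (log2 FC 0.29, SE 0.22, adjusted p = 0.659). Steers 10-8 and 10-9 lay above every low-NFMP steer, and steer 3-8 did not. PGM2, which acts more on pentose phosphates, had between 170 and 227 with a log2 fold change of −0.07. GPI, which turns glucose 6-phosphate into fructose 6-phosphate, had 6061, 10507 and 6903 in the high group and 7376, 5912 and 6843 in the low group (log2 FC 0.22, adjusted p = 0.739), where 10507 in steer 10-8 was the 1 value apart.

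Phosphofructokinase catalyses the committed step. The muscle gene PFKM had 14818, 18564 and 16558 normalized counts in the high group and 13337, 14047 and 18550 in the low group, so the groups overlapped (log2 FC 0.12, SE 0.20, adjusted p = 0.852). A larger difference was seen in the scarce liver gene PFKL, with 79.0, 84.5 and 132 in the high group and 44.0, 52.7 and 49.5 in the low group. Every high-NFMP steer lay above every low-NFMP steer, and steer 10-9 was the highest. The means were 98.6 ± 29.4 and 48.7 ± 4.41 (SD, n = 3 each). The fold change was 2.02 with a log2 SE of 0.31 and an adjusted p of 0.21. These are 78, 76 and 132 raw reads against 46, 57 and 49. The third paralog, PFKP, had 88.2, 91.1 and 132 in the high group and 71.8, 84.2 and 57.5 in the low group, again without overlap (log2 FC 0.54, SE 0.29, adjusted p = 0.511). Without steer 10-9 the log2 fold change was 0.76 for PFKL and 0.35 for PFKP, and the fold change of PFKL was then below 2. It was also below 2 without steer 3-1, at a log2 value of 0.94.

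The ratio of PFKM to the sum of PFKP and PFKL was 88.3, 105 and 62.4 in the high group and 115, 102 and 172 in the low group. Steer 10-8 of the high group lay above steer 3-3 of the low group. The difference was −0.60 on the log2 scale (exact two-sided permutation test, p = 0.2, adjusted p = 0.6 over 12 paralog ratios). It was smaller in size without steer 10-9 and without steer 10-16. With 3 steers against 3 this exact test cannot give a p below 0.1.

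The next enzymes split the sugar into triose phosphates. ALDOA had 89787, 141901 and 143145 normalized counts in the high group and 101400, 95446 and 111626 in the low group (log2 FC 0.28, SE 0.23, adjusted p = 0.676). Steer 3-8 was the lowest of all 6 steers, and the other high-NFMP steers were the highest. ALDOC had 10.1, 10.0 and 7.02 against 5.74, 11.1 and 4.04, which is too few for a test. TPI1, which interconverts the triose phosphates, had 8085, 11704 and 8902 against 7007, 6892 and 10577 (log2 FC 0.23, adjusted p = 0.731). For TPI1 steer 10-16 of the low group was second to steer 10-8.

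GAPDH had 67534, 107810 and 108444 normalized counts in the high group and 73509, 72507 and 81321 in the low group. Its log2 fold change was 0.32 (SE 0.23, adjusted p = 0.634), and it was −0.01 after quantile normalization. That method gives every library the same set of values by rank, so a gene that keeps its rank shows little difference. The normalized counts of GAPDH have the pattern of ALDOA, with steer 3-8 the lowest and steers 10-8 and 10-9 the highest. GAPDH often serves as a reference gene, and here its highest steer had 1.61 times the count of its lowest. Copies of GAPDH and of other glycolytic genes are common in mammalian genomes, and reads with multiple alignments were counted according to the methods, so reads of such copies may be included.

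PGK1, which makes the first ATP of the pathway, had 7245, 11094 and 8034 normalized counts in the high group and 7583, 8151 and 8308 in the low group (log2 FC 0.13, adjusted p = 0.834). The groups overlapped, with steer 10-8 the highest and steer 3-8 the lowest. TAF9B, a gene of the transcription machinery that overlaps PGK1 in the annotation, had a mean of 8464 normalized counts, 100.7% of the mean of PGK1, and the same log2 fold change of 0.13. Since strand use in the counting was not stated, the reads of PGK1 and TAF9B cannot be told apart.

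PGAM2 had 7619, 13476 and 12844 normalized counts in the high group and 7230, 8668 and 9359 in the low group (log2 FC 0.43, SE 0.23, adjusted p = 0.507). This was the largest log2 fold change among the muscle paralogs, yet steer 3-8 lay among the low-NFMP steers. PGAM1, the form of other tissues, had 811, 443 and 646 against 556, 575 and 598, and its log2 fold change was 0.14. For PGAM1 steer 3-8 was the highest and steer 10-8 the lowest, whereas for PGAM2 steer 10-8 was the highest and steer 3-1 the lowest. In steers 3-8 and 10-8 PGAM2 was 9.39 and 30.4 times PGAM1, while the low group kept to ratios between 12.99 and 15.7.

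Enolase makes phosphoenolpyruvate. ENO3 had 26023, 44195 and 43604 normalized counts in the high group and 28183, 32230 and 33009 in the low group (log2 FC 0.28, SE 0.23, adjusted p = 0.671). Its lowest value was again in steer 3-8. ENO1, the form of most cells, had 1094, 1196 and 1178 against 944, 890 and 999. These groups did not overlap, with means of 1156 ± 54.2 and 945 ± 54.6 (SD, n = 3 each), although the test did not call the gene (log2 FC 0.29, SE 0.17, adjusted p = 0.549). ENO3 and ENO1 thus had nearly the same log2 fold change, and their ratio differed by −0.04 on the log2 scale (exact permutation p = 1.0). The ratio was 23.8, 36.9 and 37.0 in the high group and 29.8, 36.2 and 33.0 in the low group. Without steer 3-8 the difference turned above 0 and the groups did not overlap.

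PKM, the pyruvate kinase of muscle, had 23573, 35576 and 31643 normalized counts in the high group and 24077, 24732 and 25933 in the low group (log2 FC 0.28, SE 0.21, adjusted p = 0.645). The low group spanned a narrow range that steer 3-8 fell just below and the other high-NFMP steers exceeded. LDHA had 8919, 17436 and 10801 against 10742, 11652 and 11470 (log2 FC 0.13, SE 0.24, adjusted p = 0.859). Steer 10-8 alone was high. LDHB had 925, 1472 and 1018 against 1038, 900 and 1161 (log2 FC 0.14, adjusted p = 0.829), and it was also highest in steer 10-8. The ratio of LDHA to LDHB lay between 9.63 and 11.8 in the high group and between 9.88 and 12.9 in the low group, a log2 difference of −0.04 (exact permutation p = 0.8).

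Of the lactate transporters among the 32 genes, SLC16A3 was called at an unadjusted p below 0.05 and SLC16A1 was not, and edgeR called neither at an adjusted p below 0.05. SLC16A3 (MCT4), which is known for exporting lactate from glycolytic fibres, had 478, 419 and 564 normalized counts in the high group and 276, 355 and 375 in the low group. All high-NFMP steers lay above all low-NFMP steers, with means of 487 ± 72.7 and 335 ± 52.5 (SD, n = 3 each). Its fold change was 1.45, with a log2 fold change of 0.54, an SE of 0.20 and an adjusted p of 0.321. The unadjusted call was lost without steer 10-9, where the log2 fold change was 0.43, without steer 3-1, at 0.41, and with age as a term, also at 0.43. In the annotation SLC16A3 overlaps CSNK1D, a casein kinase gene with a mean of 1446 normalized counts and a log2 fold change of 0.24 (adjusted p = 0.664). Whether its reads add to those of SLC16A3 was not tested.

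SLC16A1 (MCT1), which is known for taking up lactate in oxidative cells, had 379, 243 and 255 normalized counts in the high group and 557, 369 and 319 in the low group. The log2 fold change was −0.51 (SE 0.25, adjusted p = 0.466). Steer 3-8 lay above steers 3-3 and 10-16, so the groups overlapped, and steer 3-1 was the highest. Without steer 3-8 the log2 fold change was −0.74 and without steer 3-1 it was −0.24. The ratio of SLC16A3 to SLC16A1 was 1.26, 1.72 and 2.21 in the high group and 0.495, 0.963 and 1.17 in the low group, without overlap. On the log2 scale the means were 0.75 ± 0.41 and −0.28 ± 0.65, and their difference was 1.03, or 0.67 without steer 3-1. The exact two-sided permutation test gave p = 0.1, the smallest it can give for 3 against 3, and 0.6 after adjustment over the 12 ratios. Among the SLC16A genes outside the 32, SLC16A7 had a log2 fold change of −0.31 (adjusted p = 0.628) and SLC16A4, a less studied relative, one of −0.45 (adjusted p = 0.6), and the groups overlapped for each. SLC16A9, known for carrying carnitine, and SLC16A10, known for carrying aromatic amino acids, were lower in the high group at an unadjusted p below 0.05, with log2 fold changes of −1.08 (adjusted p = 0.168) and −0.90 (adjusted p = 0.213). The choice of these SLC16A genes was made with their values in view. Of all 12 tested SLC16A genes, 3 passed an unadjusted p below 0.05 (1 higher and 2 lower, against 11.5% of all rows), and edgeR called none at an adjusted p below 0.05.

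**Figure D4:**
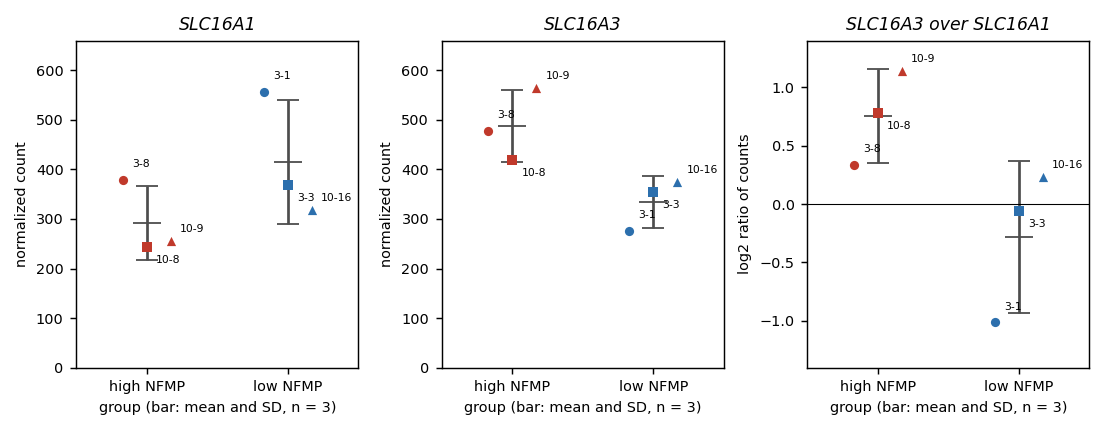
Normalized counts of SLC16A1 and SLC16A3 and the log2 ratio of their counts in each steer, with the mean and SD of each group (n = 3). The groups overlap for SLC16A1, whereas for SLC16A3 and for the ratio all 3 high-NFMP steers lie above the 3 low-NFMP steers.

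MPC1 and MPC2 form the mitochondrial pyruvate carrier. MPC1 had 2464, 3096 and 3923 normalized counts in the high group and 1947, 2560 and 2723 in the low group (log2 FC 0.39, SE 0.21, adjusted p = 0.507), and the log2 fold change was 0.22 without steer 10-9 and 0.26 without steer 3-1. MPC2 had 1446, 1799 and 1217 against 1459, 1767 and 1842 (log2 FC −0.18, SE 0.19, adjusted p = 0.753). For each gene alone the groups overlapped. The ratio of MPC1 to MPC2 was 1.70, 1.72 and 3.22 in the high group and 1.33, 1.45 and 1.48 in the low group, so the groups separated here as well. The difference was 0.58 on the log2 scale (exact permutation p = 0.1, adjusted p = 0.6). The ratio of steer 10-9 stood well above the others, and without this steer the difference was 0.27. Of the 12 ratios, these of the transporters and of the carrier were the 2 without overlap.

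The enzymes that set fructose 2,6-bisphosphate, the strongest activator of phosphofructokinase, varied widely between steers of the same group. PFKFB3 had 29599, 23711 and 11070 normalized counts in the high group and 31165, 18770 and 16430 in the low group (log2 FC −0.04, SE 0.35, adjusted p = 0.974). Both groups spanned a wide range, and steer 3-1 had 2.82 times the count of steer 10-9. PFKFB4 had 4426, 4128 and 7108 against 4753, 4491 and 5855 (log2 FC 0.05, SE 0.22, adjusted p = 0.948), and it was highest in steers 10-9 and 10-16, where PFKFB3 was lowest. PFKFB1 lay between 633 and 1027 (log2 FC −0.10) and PFKFB2 between 54.5 and 123 (log2 FC 0.16).

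FBP2, the muscle fructose bisphosphatase that runs the step of phosphofructokinase backwards, had 10031, 15868 and 8334 normalized counts in the high group and 8284, 11321 and 11472 in the low group (log2 FC 0.14, SE 0.24, adjusted p = 0.859). TIGAR, which removes fructose 2,6-bisphosphate, had 149, 163 and 170 against 96.6, 101 and 188 (log2 FC 0.33, SE 0.28, adjusted p = 0.688). Steer 10-16 kept the TIGAR groups from separating. BPGM, which makes 2,3-bisphosphoglycerate and is best known from red cells, lay between 86.1 and 121 (log2 FC −0.20, adjusted p = 0.809).

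HIF1A, the oxygen-sensitive activator of glycolytic genes, was the steadiest of the 32 genes. It had 766, 801 and 800 normalized counts in the high group and 817, 805 and 773 in the low group, and its highest steer had 1.07 times the count of its lowest. The log2 fold change was −0.02 with a 95% interval from −0.38 to 0.35. HIF1A overlaps the uncharacterized gene LOC107132877, which had a mean of 498 normalized counts and may share its reads. HIF1A protein is mostly controlled after translation, and these counts carry no information on it.

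The main line has 12 enzymes, the most read paralog or the single gene of each step. They are HK2, PGM1, GPI, PFKM, ALDOA, TPI1, GAPDH, PGK1, PGAM2, ENO3, PKM and LDHA. The high-group mean was above the low-group mean for all 12, with log2 fold changes between 0.12 and 0.43. Over all rows 51.9% had a log2 fold change above 0. GAPDH turned to −0.01 after quantile normalization, which goes by rank, and LDHA did so when the first number of each label was a term of the model. Without steer 10-8, GPI was −0.0156, PGK1 −0.0356 and LDHA −0.16. The highest value was in steer 10-8 for 9 of them, in steer 10-9 for 2 (ALDOA and GAPDH) and in steer 3-8 for 1 (HK2). The lowest value was in steer 3-8 for 6 of them, in steer 3-1 for 3 and in steer 3-3 for 3. For the 6 lowest in steer 3-8 (ALDOA, GAPDH, PGK1, ENO3, PKM and LDHA), steer 3-8 lay below all 3 low-NFMP steers. For PGM1, ALDOA, GAPDH, PGAM2, ENO3 and PKM, both steers 10-8 and 10-9 lay above all 3 of them. The high group was thus not of 1 kind for these enzymes.

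The summed muscle fibre markers had 509430, 883500 and 747040 normalized counts in the high group and 511780, 626710 and 695970 in the low group. Steer 3-8 was the lowest here too, and its adipocyte marker sum was the highest. The part of this in the enzyme values was not tested. Like the 12 enzymes, each of the 6 muscle fibre markers had a log2 fold change above 0, from 0.02 (TNNC2) to 0.42 (TNNT3). Of 8 fast fibre markers none was called at an unadjusted p below 0.05 by edgeR. Of 7 slow fibre markers 1 was called, against 11.5% of all rows. It was MYL3, a slow myosin light chain, which was lower in the high group (log2 FC −0.78, adjusted p = 0.145). The slow list did not share a direction, and its median log2 fold change was 0.06. MYH7 (0.32), TNNT1 (0.20), MYL2 (0.13) and TNNC1 (0.06) were above 0, and TNNI1 (−0.20) and ATP2A2 (−0.25) below.

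**Figure D5:**
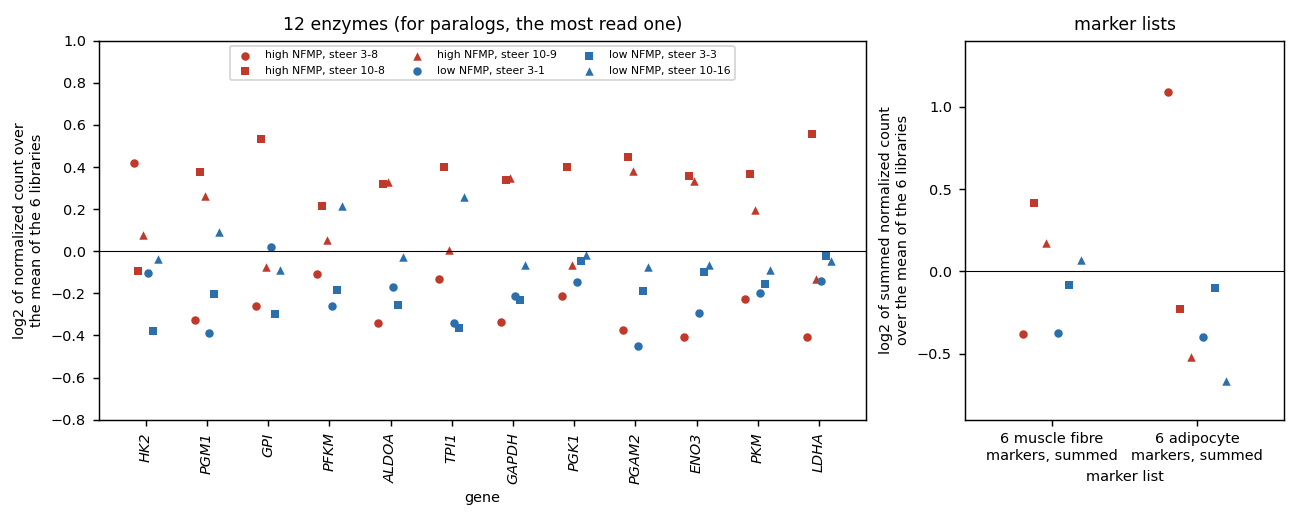
Left, log2 of the normalized count over the mean of the 6 libraries for the 12 main enzymes, 1 point per steer. Right, the same for the sum of 6 muscle fibre markers and of 6 adipocyte markers. Steer 3-8 (red circle) lies low for most enzymes and for the muscle markers and high for the adipocyte markers. Steers 10-8 and 10-9 lie high for 6 of the 12 enzymes. GAPDH is among these 6, and its group difference is −0.01 after quantile normalization, which goes by rank.

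Without steer 3-8 more of these genes passed the unadjusted threshold. Then 10 of the 31 genes were called (32.3%, against 15.3% of all rows), and 9 of them were higher in the high group. The largest of the enzymes were PFKL (log2 FC 1.15), PGAM2 (0.64), GAPDH (0.51), ENO3 (0.49), PGM1 (0.47), ALDOA (0.47) and PKM (0.43). MPC1 (0.54) and SLC16A3 (0.55) were also higher, and SLC16A1 (−0.74) was the 1 gene that was lower. At an adjusted p below 0.05 edgeR still called none of them, against 0.214% of all rows, and the smallest adjusted p among the 31 was 0.167. This comparison rests on 2 high-NFMP steers, and steer 3-8 was singled out after its values were seen.

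The steer labels begin with 3 or with 10, a number whose meaning was not stated in the labels or the methods. The comparison was made within each number as the log2 ratio of mean normalized counts, with no test for so few steers. Among labels with 3, steer 3-8 was compared with steers 3-1 and 3-3, and among labels with 10, steers 10-8 and 10-9 with steer 10-16. PFKL was 0.71 and 1.13, SLC16A3 was 0.60 and 0.39, and SLC16A1 was −0.29 and −0.36 in the order of these numbers, so each kept its direction. ENO1 was 0.25 in both. Several abundant enzymes went opposite ways, as ALDOA was −0.13 and 0.35, GAPDH −0.11 and 0.41, ENO3 −0.22 and 0.41 and PGAM2 −0.06 and 0.49. A value above 0 was found for 15 of the 31 genes (48.4%) within label 3, against 49.4% of all rows, and for 19 (61.3%) within label 10, against 51.6% of all rows.

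Other genes of the pathway were counted from a list of 58, of which 54 were in the table and 42 were tested. At an unadjusted p below 0.05, 3 were higher and 1 was lower in the high group by edgeR, so 4 of 42 were called against 11.5% of all rows, and none passed at an adjusted p below 0.05. This share is not above that of all rows, and the values of the 4 are given as a description. The median log2 fold change of these genes was 0.00. PGM3, which makes a precursor of glycosylation, had 141, 110 and 157 normalized counts against 68.9, 114 and 87.8 (log2 FC 0.59, adjusted p = 0.433). GPD1L, related to the glycerol 3-phosphate dehydrogenases, had 34.5, 45.6 and 55.2 against 18.2, 23.1 and 15.1 (log2 FC 1.25, adjusted p = 0.238). Its groups did not overlap, but the counts are low. ADM, the hypoxia-responsive peptide adrenomedullin, had 1009, 713 and 767 against 600, 440 and 487 (log2 FC 0.71, adjusted p = 0.166), also without overlap. EGLN1, the oxygen sensor that marks HIF1A for degradation, had 1694, 2260 and 2053 against 2387, 2687 and 2912 (log2 FC −0.41, adjusted p = 0.413). For EGLN1 all high-NFMP steers lay below all low-NFMP steers. Of 11 tested targets of HIF1A outside glycolysis, ADM was the 1 called, and their median log2 fold change was −0.01.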

How the data were processed

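Longissimus thoracis muscle of 6 Hanwoo steers was sequenced, and steers were grouped as high or low NFMP from their sample labels. The replicates are separate steers. The authors made the libraries with a Lexogen 3′ mRNA kit and deposited raw counts of reads per gene symbol. Their methods name Tophat2 with HTSeq, and also Bowtie2 with unique and multiple alignments, whereas the submitters' processing notes name Bowtie2 and bedtools. Which of these made the counts, and whether strand was used, was unstated (not given in the sources used here).

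Counts of all rows entered edgeR 4.0.16 in R 4.3.3 (default filter with a minimum count of 10 and a minimum total of 15, TMM factors, robust quasi-likelihood fit, common biological variation 25.1%), and p-values were adjusted by Benjamini-Hochberg over the 15039 of 23015 rows that passed. The SE and the 95% interval were derived from the F statistic. The call rules were an adjusted p below 0.05, an unadjusted p below 0.05, and the latter with a fold change above 2. Shares and ratios of paralogs used raw counts within a library, and the ratios, with 0.5 counts added, were compared by exact permutation tests. Scaling by coding length and sequence descriptions were planned and not run, as no such lengths or sequences were used here. Alternatives were other filters, RLE size factors, library totals, DESeq2 1.42.0, quantile normalization (limma 3.58.1, or pseudocounts of 0.1, 1 and 10), a model term for the first label number or for age, and leaving out each steer in turn. The procedure was tested on simulated data.

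The genes and lists were chosen with earlier results of these data known. All 32 genes are named, with values per steer for the most read paralog of a family, for genes at an unadjusted p below 0.05 and for those whose groups do not overlap, and from the other lists the genes at an unadjusted p below 0.05 or, for markers, at 0 in a library. The per-steer values of other genes, of overlapping genes and of marker sums were added after the values were seen. Other marker lists were counted at an unadjusted p below 0.05 by edgeR, which 11.5% of all rows passed. Of these, 1 of 5 fibroblast genes (PDGFRA, log2 fold change −0.51), 0 of 4 endothelial and 1 of 5 leukocyte genes (ITGAM, −1.08) passed. So did 0 of 1 tested erythrocyte and 0 of 3 tested nerve genes, and none passed an adjusted p below 0.05. The other fibroblast genes (COL1A1, COL3A1, DCN and LUM) lay above 0, with a list median of 0.23. Among leukocyte genes PTPRC and CSF1R lay above 0 and CD68 and CD163 below, with a list median of −0.10. Gene overlaps came from the RefSeq table of ARS-UCD2.0, in which all 32 genes were found by symbol. At these depths counting error is relatively larger for genes with few reads, such as those under 100, and as no molecular identifiers are named in the methods, reads do not count independent molecules.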

Additional observations from a re-analysis of the deposited data

How the results depend on the processing

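No gene passed an adjusted p below 0.05 in any setting, with a smallest adjusted p between 0.109 (DESeq2) and 0.463 (age as a term). The count of genes higher at an unadjusted p below 0.05 and a fold change above 2 was 0 with library totals alone, with quantile normalization (limma or pseudocounts of 0.1, 1 and 10) and with the first label number as a term, and 0 to 1 when a steer was left out. The count higher at an unadjusted p below 0.05 was 1 with age as a term and 1 to 9 when a steer was left out (9 without steer 3-8), and the count lower was 1 with no filter (SLC16A1) and 0 to 1 when a steer was left out (1 without steer 3-8 or 10-16). Over all rows the share called in either direction was 8.38% with age as a term and 9.76% with no filter. It was 8.45% to 15.3% when a steer was left out (15.3% without steer 3-8). The paralog ratios without overlap numbered 2 to 5 when a steer was left out (5 without steer 3-8 and 4 without steer 10-8). Groups of 2 and 3 steers separate more easily than groups of 3 and 3, so these numbers cannot be set against the 2 found with all steers. Of 527 log2 fold changes in planned settings, 468 kept their direction and their side of an unadjusted p of 0.05, 3 fell short of it (SLC16A3), 15 newly passed it and 41 changed sign. The sign changes came from 14 genes, none at an unadjusted p below 0.05. After quantile normalization by limma, and with pseudocounts of 1, 0.1 and 10, GAPDH was −0.00850, −0.00848, −0.00848 and −0.00848, PFKFB4 was −0.0244, −0.0245, −0.0245 and −0.0244, and HIF1A was 0.0179, 0.0177, 0.0178 and 0.0175, and with library totals alone PFKFB4 was −0.00073. With the first label number as a term LDHA was −0.0142, PFKFB1 0.0687, PFKFB3 0.16 and PFKFB4 −0.0609. With age as a term PFKFB2 was −0.38, PFKFB3 0.10, FBP2 −0.0518, BPGM 0.0017 and HIF1A 0.0077. With a steer left out, PGM2 ran from −0.20 to 0.0464, GPI from −0.0156 to 0.37, PGK1 from −0.0356 to 0.25, PGAM1 from −0.0827 to 0.37, LDHA from −0.16 to 0.32, LDHB from −0.0551 to 0.27, PFKFB1 from −0.33 to 0.0509, PFKFB2 from −0.0867 to 0.385, PFKFB3 from −0.35 to 0.28, PFKFB4 from −0.22 to 0.24, FBP2 from −0.15 to 0.34 and HIF1A from −0.0142 to 0.0044. The cause was not tested. Family shares and ratio differences moved by less than the spread between steers in every setting run. Several ratio differences did change sign when a steer was left out. Among them were ENO3 to ENO1 without steer 3-8, PGAM2 to PGAM1 without steer 10-8 and PFKFB4 to PFKFB3 without steer 10-9. The planned scaling by coding length was not run. No paired analysis was possible because the labels give no replicate numbers, and the numbers used here follow accession order and tie no steer of one group to a steer of the other. Counting error is largest, relative to the value, for PFKL, PFKP, PFKFB2, BPGM and ALDOC, the genes that averaged under 100 normalized counts.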
